A study of Mus musculus with 2 samples.

Results

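The interferon and MHC class I pathway was followed through 40 genes in mouse uterus taken between implantation sites on day 8 of pregnancy. The genes were chosen by name, as sensors, transcription factors and effectors of interferon signalling and as components of the immunoproteasome and of peptide loading onto MHC class I. Of the 40, 35 had at least 1 probe set annotated to that gene alone, out of 12393 such genes on the array, and these 35 had 47 probe sets between them. Isg15 and Psme2 were covered only by probe sets shared with a related gene and are given apart, and expression of Oas1g, Ifi44 and Xaf1 was not analysed here, although their promoters were searched.

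A Cbs null sample and a control sample were compared, with 1 Affymetrix array each and RNA from 4-month-old pregnant females of C57Bl/6J X OLA129 background. The null females were homozygous for Cbs deficiency according to the submitters' design text, and Cbs encodes cystathionine beta-synthase, the enzyme that joins homocysteine to serine. The genotype of the control females beyond that word, the altered part of Cbs and the number of animals behind a sample are not given in the labels. The sampled tissue was uterine wall without an attached embryo.

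Interferons are secreted cytokines that set up an antiviral state in the cells that receive them. Type I interferons act through a complex that holds STAT2 and IRF9 and binds interferon-stimulated response elements in promoters of genes such as Ifit1, Mx1 and Oas1a, whereas much of the response to interferon-gamma runs through IRF1. Interferon-gamma also induces the alternative proteasome subunits and the transporters that feed peptides to MHC class I molecules. In the pregnant mouse uterus, natural killer cells are a known source of interferon-gamma, which acts there on decidual stroma and on spiral arteries.

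Values are deposited signals on a linear scale, and signals under a floor of 43.2 units, the 40th percentile over the 2 arrays, were set to that floor before the log2 ratio (Cbs null over control) was taken. Each gene is given by its brightest probe set unless stated otherwise. With 1 array per group there is no replicate, so no difference below carries a test or a p-value. The only error that could be measured was technical. Probe sets of the same gene gave log2 ratios with an SD of 0.22, over 2757 genes, here called the technical SD. It leaves out the variation between mice and any error that the probe sets of a gene share within an array. Of 8410 measured genes, 3310 lay more than 1 technical SD from 0, so passing that size does not by itself set a gene apart. Cbs itself read 42.6 in the Cbs null sample and 79.8 in the control sample, at least 1.85-fold lower. The smooth muscle marker Acta2 read 9373 in the Cbs null sample and 9826 in the control sample, and 0 of 7 trophoblast markers were above the floor in either sample.

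The interferon and class I genes were on the whole slightly higher in the Cbs null sample, and few differed by much. Of the 35 genes, 27 had a log2 ratio above 0, 6 had one below 0 and 2, Mx1 and Mx2, lay under the floor in both samples. The median log2 ratio over all 35 was 0.20, against 0.00 over all 12393 genes. Above the floor in both samples were 32 of the 35, of which 27 were higher and 5 lower. Among the 7941 genes of the whole array above the floor in both samples, 53.6% were higher. At least 2-fold higher was 1 member, the immunoproteasome subunit gene Psmb9, where 0.797% of 8410 measured genes were 2-fold higher. At least 1.5-fold higher were 5 members, Psmb9, Psmb10, Rsad2, Oasl2 and Irf7, where 3.6% of measured genes passed that size. No member was 2-fold or 1.5-fold lower, against 0.713% and 3.39% of measured genes. In a bulk sample, fewer cells that express a gene and less RNA per cell cannot be told apart.

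**Figure D1:**
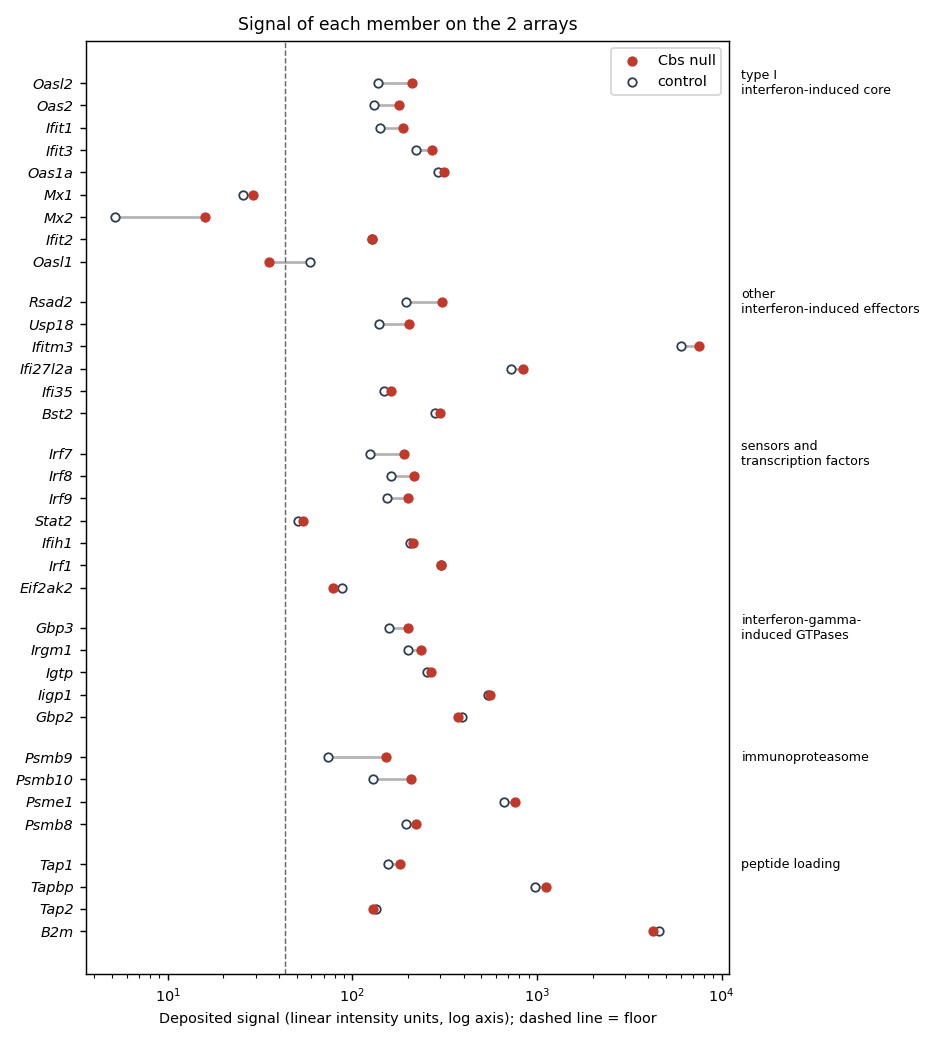
Deposited signal (log axis) of the 35 members on the Cbs null array (filled red) and the control array (open), by role, with the floor of 43.2 as a dashed line. Most filled points lie a little to the right of the open ones, the widest gap above the floor is that of Psmb9 (151.4 and 73.9), and Mx1 and Mx2 lie left of the floor in both samples.

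At the top of the pathway, no interferon gene gave a usable signal. All 10 interferon genes that could be analysed lay under the floor in both samples, at most 18.9 units in the Cbs null sample and 21.3 in the control sample, both for Ifnz. Ifng read 0.7 in both samples, and Ifnb1, the first type I interferon made after infection, read 3.8 in the Cbs null sample and 7.0 in the control sample. Values this low have no order on such an array, so the ligands cannot be compared between the samples.

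The receptors and their kinases were well above the floor and nearly alike. Ifnar1, a chain of the type I receptor, read 241.1 in the Cbs null sample and 211.3 in the control sample. The other chain, Ifnar2, read 330.1 and 306.3 in the same order. Ifngr1, the ligand-binding chain for interferon-gamma, read 166 in the Cbs null sample and 168 in the control sample. Over the 9 receptor and kinase genes analysed, 7 were higher and 2 lower, and the log2 ratios ran from -0.20 for Tyk2 to 0.24 for Jak2. In either direction 0 reached 1.5-fold, where 3.6% of measured genes were that much higher and 3.39% that much lower.

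The 2 sensors among the members were Ifih1 and Eif2ak2. Ifih1, which encodes the MDA5 sensor of long double-stranded RNA, read 212.7 in the Cbs null sample and 205.4 in the control sample, a log2 ratio of 0.05. Eif2ak2, the RNA-activated kinase PKR that stops translation, read 78.8 in the Cbs null sample and 88.2 in the control sample, a log2 ratio of -0.16, and its dimmer probe set was also lower at -0.26. In their brighter probe sets both genes lay within the technical SD of 0.22. In the wider list of nucleic acid sensing genes, 7 of 13 were higher, 1 was lower and 5 lay under the floor in both samples. The 7 included Zbp1, which was above the floor only in the Cbs null sample. None of the 13 reached 1.5-fold, where 3.6% of measured genes were that much higher and 3.39% that much lower. The 2 brightest, the kinase gene Tbk1 and its substrate Irf3, stood at 0.13 and -0.13. Over the 7 genes above the floor in both samples the median was 0.23. Tlr3, an endosomal receptor for double-stranded RNA, read 64.6 in the Cbs null sample and 44 in the control sample, a log2 ratio of 0.55 from dim signals. Mavs, the adaptor of the RNA sensors, stood at 0.52 in its brighter probe set and at -0.27 in the other, and the factor gene Irf5 at 0.41 and -0.24 in the same way.

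The transcription factors split. Irf7, the factor that amplifies type I interferon production, read 189.9 in the Cbs null sample and 124.9 in the control sample, a log2 ratio of 0.60 or 1.52-fold higher. Irf8, a factor of the macrophage and dendritic lineage that interferon-gamma also induces, read 215.5 in the Cbs null sample and 160.9 in the control sample. Its log2 ratio was 0.42, and a second probe set gave 0.40. Irf9, the DNA-binding part of the type I response complex, read 199.1 in the Cbs null sample and 154.6 in the control sample, a log2 ratio of 0.36. These 3 genes were higher by more than the technical SD.

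By contrast Irf1, the main factor downstream of interferon-gamma, read 302.1 in the Cbs null sample and 300.8 in the control sample, a log2 ratio of 0.01 whose sign turned to -0.01 when the arrays were centred on the median gene. Stat2, the signalling partner of IRF9, was dim. Its brighter probe set read 54.1 in the Cbs null sample and 50.5 in the control sample, and the other read 60.8 and 43.2, where the second value lies exactly at the floor. Its log2 ratio was therefore 0.10 in one probe set and 0.49 in the other, and the larger one rests on a control signal at the floor.

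The type I core comprises the Ifit, Oas and Mx genes with Isg15. Promoter stretches are shown for Ifit1, Ifit3, Isg15 and Oas1a, which are among the 5 of 8 searched core genes that held the element described next. Ifit2, Oasl1 and Oasl2 held no match. A string search of RefSeq promoters (assembly GRCm38.p6, 250 bases before to 50 after each start) looked on both strands for GAAA, 2 bases of any kind and GAAA again, the doubled GAAA core of the interferon-stimulated response element. The stretches below lie before the start, 5′ to 3′ on the strand of the gene, with matches in capitals. Overlapping matches run together, and on the opposite strand the match reads as TTTC repeats. They lie at chr19:34640775-34640823 on the plus strand for Ifit1, chr19:34583363-34583426 on the plus strand for Ifit3, chr4:156200865-156200906 on the minus strand for Isg15 and chr5:120907526-120907555 on the minus strand for Oas1a.
Ifit1: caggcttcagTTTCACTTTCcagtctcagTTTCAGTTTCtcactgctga
Ifit3: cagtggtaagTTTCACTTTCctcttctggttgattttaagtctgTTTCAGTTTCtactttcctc
Isg15: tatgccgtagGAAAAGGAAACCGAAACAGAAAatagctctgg
Oas1a: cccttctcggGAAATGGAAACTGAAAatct

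Oasl2, an oligoadenylate synthetase-like antiviral protein gene, read 211 in the Cbs null sample and 137.3 in the control sample, a log2 ratio of 0.62. Oas2, whose product makes the second messenger that activates RNase L, read 179.3 in the Cbs null sample and 130.7 in the control sample, a log2 ratio of 0.46. Ifit1, which binds RNA lacking a host cap structure, read 188.3 in the Cbs null sample and 141.8 in the control sample, a log2 ratio of 0.41. All 3 were higher by more than the technical SD.

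Close relatives of these genes had smaller ratios. Ifit3, a partner of IFIT1, read 269.2 in the Cbs null sample and 221.5 in the control sample, a log2 ratio of 0.28. Ifit2, which lies beside Ifit3 on chromosome 19, read 127.3 in the Cbs null sample and 128 in the control sample, a log2 ratio of -0.01. Oas1a, another synthetase, read 314.4 in the Cbs null sample and 290.4 in the control sample, a log2 ratio of 0.11. The Ifit and Oas families thus each held members that were higher and members within the technical SD of 0.

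Oasl1, which in mouse restrains translation of Irf7, was the lowest member. It read 35.2, under the floor, in the Cbs null sample and 58.7 in the control sample, at least 1.36-fold lower. Mx1 and Mx2, dynamin-like antiviral GTPases of which Mx1 is defective in many inbred strains, lay under the floor in both samples. Mx1 read 29 in the Cbs null sample and 25.6 in the control sample, and Mx2 read 15.8 and 5.2 in the same order. The probe set shared by Isg15, the ubiquitin-like modifier, and Gm9706 read 122.1 in the Cbs null sample and 104.2 in the control sample, a log2 ratio of 0.23.

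The other interferon-induced effectors were all higher, 6 of 6, with log2 ratios from 0.07 to 0.64. Rsad2, the antiviral enzyme viperin, read 304.7 in the Cbs null sample and 195.2 in the control sample in its brightest probe set, 1.56-fold higher. Its other 2 probe sets disagreed with that value. A second read 80.2 in the Cbs null sample and 86 in the control sample, a log2 ratio of -0.10. The last read 49 in the Cbs null sample and 34.1, below the floor, in the control sample. With its probe sets averaged the log2 ratio of Rsad2 was 0.24, so its place among the 1.5-fold genes rests on 1 probe set.

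Usp18, the protease that removes ISG15 and damps the type I receptor, read 201.3 in the Cbs null sample and 138.6 in the control sample, a log2 ratio of 0.54. Ifitm3, a membrane protein gene that blocks virus entry, had the strongest signal of all members, at 7584.4 in the Cbs null sample and 6050.5 in the control sample, a log2 ratio of 0.33. Ifi27l2a, a mitochondrial interferon-induced gene, read 842.2 in the Cbs null sample and 718.5 in the control sample, a log2 ratio of 0.23. Ifi35, whose product partners NMI, stood at 0.13, and Bst2, the virus-tethering protein tetherin, at 0.07, both within the technical SD.

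Among the GTPases induced by interferon-gamma, which attack vacuoles that hold pathogens, differences were small. Gbp3 read 199.2 in the Cbs null sample and 157.9 in the control sample, a log2 ratio of 0.34. Irgm1 read 236 in the Cbs null sample and 199.5 in the control sample, a log2 ratio of 0.24. Igtp read 267.8 in the Cbs null sample and 254.6 in the control sample, a log2 ratio of 0.07. Iigp1 read 554.1 in the Cbs null sample and 540.6 in the control sample, a log2 ratio of 0.04, and its dimmer probe set gave 0.28. Gbp2 read 373.5 in the Cbs null sample and 391.8 in the control sample, a log2 ratio of -0.07, and -0.15 in the other probe set. Only Gbp3 and Irgm1 of these 5 exceeded the technical SD of 0.22.

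Of the 5 GTPase genes 4 were searched, all but Iigp1. Their promoters hold the same doubled element as part of the type I core, so they are set beside it. The stretches lie at chr3:142620594-142620623 on the plus strand for Gbp2, chr3:142559989-142560024 on the plus strand for Gbp3, chr11:48871425-48871460 on the minus strand for Irgm1 and chr11:58199512-58199541 on the plus strand for Igtp, in the same notation as above.
Gbp2: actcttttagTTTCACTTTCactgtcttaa
Gbp3: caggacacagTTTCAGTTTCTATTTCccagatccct
Irgm1: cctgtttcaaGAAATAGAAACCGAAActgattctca
Igtp: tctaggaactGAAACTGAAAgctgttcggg

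The largest differences were in the immunoproteasome, in which interferon-inducible catalytic subunits take the place of the constitutive ones. Psmb9, which replaces Psmb6, read 151.4 in the Cbs null sample and 73.9 in the control sample, a log2 ratio of 1.03 or 2.05-fold higher. Of the 8410 measured genes, 62 had a higher ratio. Psmb10, which replaces Psmb7, read 206.8 in the Cbs null sample and 129.1 in the control sample, a log2 ratio of 0.68 or 1.60-fold higher. Psmb8, which replaces Psmb5, read 221.9 in the Cbs null sample and 194.9 in the control sample, a log2 ratio of 0.19. The 3 genes have 1 probe set each, so none of these values has a second reading.

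The constitutive partners did not differ in this way. Psmb6 stood at -0.03, Psmb7 at 0.12 and Psmb5 at -0.02 on the log2 ratio scale. The log2 ratio of the inducible subunit minus that of its partner was 1.07 for Psmb9, 0.56 for Psmb10 and 0.20 for Psmb8. Of the 16 constitutive proteasome genes, 8 were higher and 8 lower, with a median log2 ratio of 0.01, and 0 reached 1.5-fold. The proteasome activator was hardly different, since Psme1, its alpha subunit, read 759.2 in the Cbs null sample and 662.1 in the control sample, a log2 ratio of 0.20. The probe set shared by Psme2, the beta subunit, and Psme2b read 394 in the Cbs null sample and 463 in the control sample, a log2 ratio of -0.23.

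Psmb9 lies head to head with Tap1, so both are transcribed outward from a common stretch of DNA. The RefSeq starts are separated by 225 bases at chr17:34187331-34187555 (GRCm38.p6), printed here on the plus strand, the strand of Tap1, with the 1 match to GGGCGG on either strand in capitals. That motif, the core of a binding site for SP1, stands on either strand in 31.9% of promoters when the 225 bases before each start are searched.
Psmb9-Tap1 interval: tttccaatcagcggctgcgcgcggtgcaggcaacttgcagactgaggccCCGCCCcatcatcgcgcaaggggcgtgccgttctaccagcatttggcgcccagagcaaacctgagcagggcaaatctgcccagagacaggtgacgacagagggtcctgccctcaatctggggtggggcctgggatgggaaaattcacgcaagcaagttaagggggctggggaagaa

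The search found 0 matches to the doubled GAAA in this stretch. Tap1, a chain of the transporter that carries peptides into the endoplasmic reticulum, read 182.1 in the Cbs null sample and 155.7 in the control sample, a log2 ratio of 0.23 against 1.03 for Psmb9. The other 3 Tap1 probe sets were below the floor, between 0.5 and 6.8 units.

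Peptide loading genes were close to equal. Tap2, the other transporter chain, read 129.1 in the Cbs null sample and 134.9 in the control sample, a log2 ratio of -0.06. Tapbp, the bridge between transporter and class I molecule, read 1123.7 in the Cbs null sample and 975.2 in the control sample, a log2 ratio of 0.20, and 0.56 in a dimmer probe set. B2m, the light chain of every class I molecule, read 4276.6 in the Cbs null sample and 4573.8 in the control sample, a log2 ratio of -0.10, with -0.16 in its second probe set.

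The classical heavy chain genes were close to equal in their brightest probe sets. H2-K1 read 3452.6 in the Cbs null sample and 3257.1 in the control sample, a log2 ratio of 0.08, and H2-D1 read 3098.8 and 3088.8 in the same order, a log2 ratio of 0.00. These 2 genes are close copies of each other, and their probe sets may share targets. Other H2-K1 probe sets above the floor stood at 0.05, -0.32 and -0.56, the last from dim signals. Those of H2-D1 lay between -0.03 and 0.23, and a probe set shared by H2-K1 and H2-D1 stood at -0.23. Among class I-like genes, Mr1, which presents vitamin metabolites, stood at 0.49, Hfe, the iron regulator, at 0.31, Fcgrt, the antibody carrier, at 0.13 and H2-M3, which presents formylated peptides, at 0.09. Cd1d1, which presents lipids, was lower at -0.37. A probe set shared by H2-T23 and H2-T-ps read 757.4 in the Cbs null sample and 534.2 in the control sample, a log2 ratio of 0.50. A probe set shared by H2-Q9 and H2-Q7 read 784.2 in the Cbs null sample and 638.2 in the control sample, a log2 ratio of 0.30, and another shared by H2-Q6 and H2-Q8 stood at 0.21. Of 11 heavy chain genes analysed, 6 were higher, 1 was lower and 4 were below the floor in both samples.

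Chaperones and trimming enzymes of class I assembly leaned the other way. Of 7 such genes, 6 were lower, 1 was equal and 0 were higher, with a median log2 ratio of -0.12. Calr, the chaperone calreticulin, read 3014.9 in the Cbs null sample and 3788.1 in the control sample, a log2 ratio of -0.33, and Canx, its membrane-bound relative calnexin, stood at -0.13. None reached 1.5-fold, against 3.39% of measured genes that were 1.5-fold lower.

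**Figure D2:**
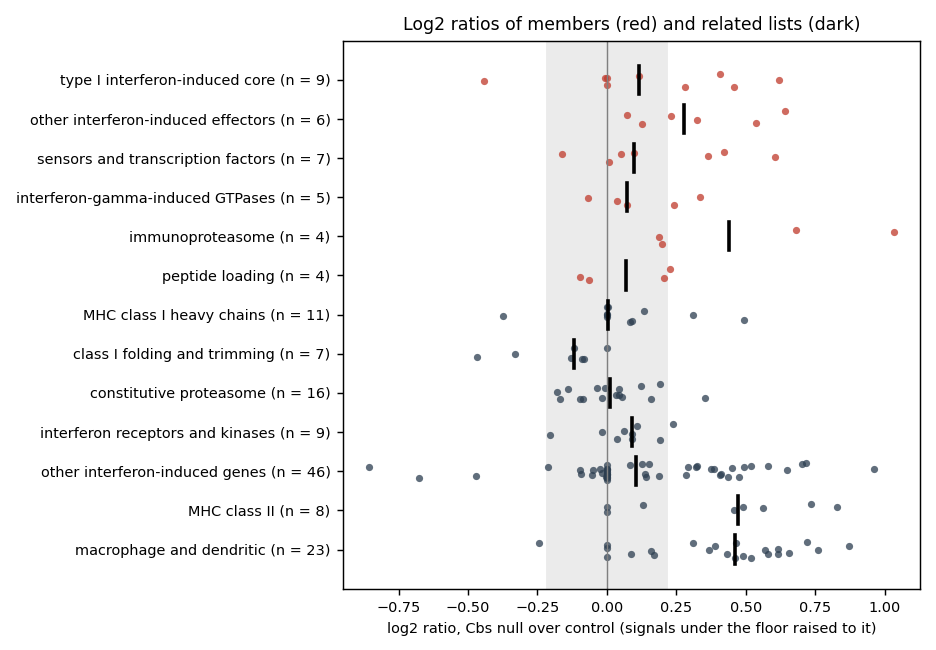
Log2 ratio of Cbs null over control for each gene, by role for the members (red) and for related lists (dark), with the median of each list as a black bar and 1 technical SD (0.22) either side of 0 shaded. The immunoproteasome median of 0.44, over 4 genes from 0.19 to 1.03, is the highest of the member groups as drawn. It leaves out Psme2, whose shared probe set stood at -0.23. The constitutive proteasome centres on 0.01, and the macrophage and MHC class II lists lie at 0.46 and 0.47.

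Set against each other, the type I core and the genes of interferon-gamma, immunoproteasome and peptide loading were not ordered in a stable way. The core had a median log2 ratio of 0.11 over its 9 analysed genes, from -0.44 to 0.62. The gamma side, 14 genes with Irf1 among them, had a median of 0.19, from -0.10 to 1.03. The gap between these medians, core minus gamma side, was -0.08. It turned to 0.09 with the floor at the 20th percentile (10.9 units). There Mx1 counts with a value of its own, and Mx2 with a bound, since its control signal of 5.2 is still under that floor. Restricted to genes above the floor in both samples, the core median was 0.35 over 6 genes and that of the gamma side 0.19 over 14. At least 1.5-fold higher were 1 of 9 core genes and 2 of 14 genes on the gamma side, against 3.6% of measured genes.

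The spread within each side was larger than the gap between them. On the gamma side, Psmb9 and Psmb10 stood apart at 1.03 and 0.68, and the other 12 genes lay between -0.10 and 0.34. In the core, Oasl2, Oas2 and Ifit1 lay between 0.41 and 0.62, while Ifit3 stood at 0.28, Oas1a and Ifit2 lay within the technical SD and Oasl1 was lower. More than 1 technical SD from 0 were 17 of the 35 members, where 3310 of 8410 measured genes were that far from 0. More than 2 technical SD from 0 were 8 members, 7 of them higher and 1 lower. Among measured genes, 7.18% were that far above 0 and 6.63% that far below it.

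**Figure D3:**
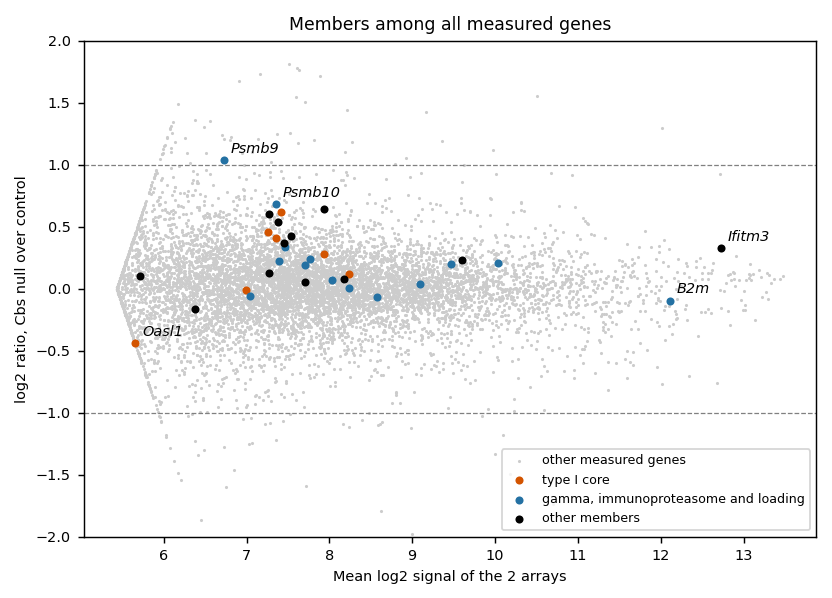
Log2 ratio of Cbs null over control against mean log2 signal for every measured gene (grey), with the type I core in orange, the gamma, immunoproteasome and loading side in blue, other members in black, and dashed lines at 2-fold. Members lie within the grey cloud, Psmb9 is the single member above the upper dashed line, and 26 genes beyond 2 log2 units are not drawn.

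Where members had several probe sets, these gave a second reading on the same arrays. Of 9 such genes, Irf8 was higher in both of its probe sets by more than the technical SD. B2m, Gbp2 and Eif2ak2 were slightly lower in each of theirs. Tapbp, Stat2 and Iigp1 were higher in each, but by more in the dimmer probe set than in the brighter. Rsad2 was the single member whose probe sets above the floor in both samples went in opposite directions.

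**Figure D4:**
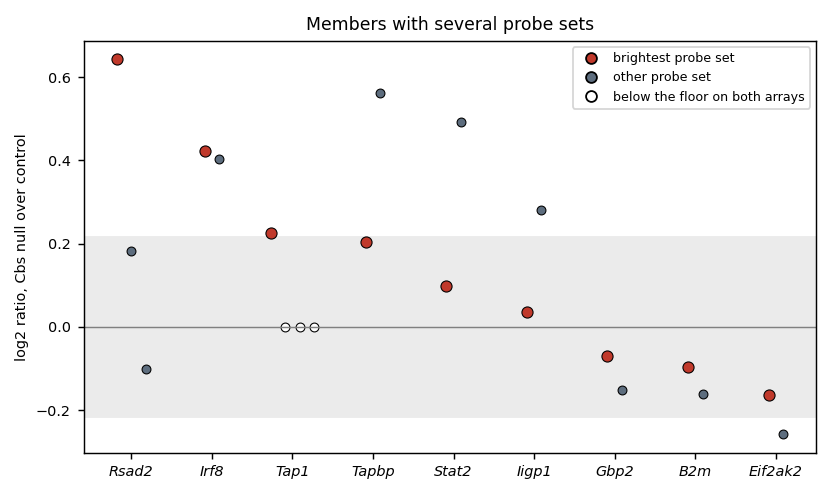
Log2 ratio of Cbs null over control in every probe set of the 9 members with several, the brightest in red, others in grey, and probe sets below the floor in both samples as open circles at 0, with 1 technical SD (0.22) shaded. The 2 Irf8 probe sets nearly coincide at 0.42 and 0.40, while those of Rsad2 spread from -0.10 to 0.64.

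Several members are neighbours on a chromosome, and their ratios are set side by side here. On chromosome 17, Psmb9, Tap1, Psmb8 and Tap2 follow each other within the MHC class II region, with log2 ratios of 1.03, 0.23, 0.19 and -0.06. The class II antigen presentation genes H2-Ab1, H2-Aa and H2-Eb1 come next in the order of genes on the array, at 0.56, 0.46 and 0.73. The females were of a crossed strain background. The strain origin of this region in each sample was not determined, and its part in these ratios was not tested. On chromosome 19, Ifit2, Ifit3 and Ifit1 stood at -0.01, 0.28 and 0.41. On chromosome 3, Gbp7, a related GTPase gene, Gbp3 and Gbp2 stood at 0.38, 0.34 and -0.07, with Gbp2b, under the floor, between the last pair. On chromosome 5, Oasl2 and Oasl1 stood at 0.62 and -0.44. On chromosome 12, Rsad2 adjoins Cmpk2, an interferon-induced nucleotide kinase gene, and the log2 ratios were 0.64 and 0.45. On chromosome 11, Igtp adjoins Irgm2, a related GTPase gene, at 0.07 and 0.58.

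**Figure D5:**
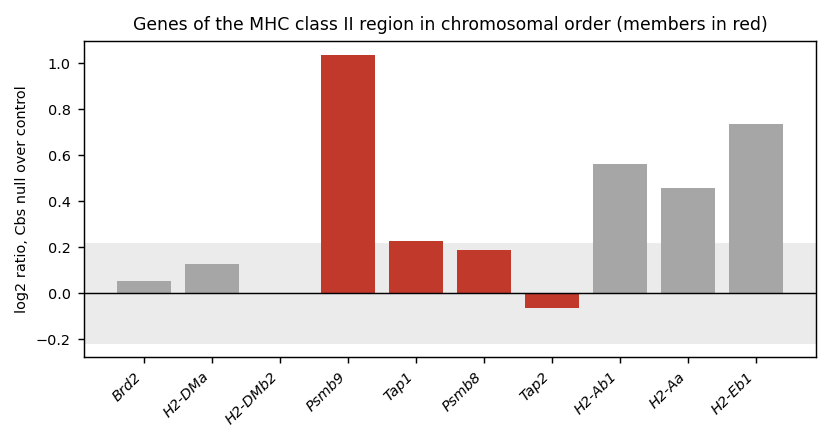
Log2 ratio of Cbs null over control for genes analysed in the MHC class II region, in chromosomal order, members in red, with 1 technical SD (0.22) shaded. Psmb9 at 1.03 stands between H2-DMb2, below the floor in both samples and so at 0, and Tap1 at 0.23, and the class II genes on the right lie between 0.46 and 0.73.

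Promoter sequence was matched for 33 of the 40 genes, and 17 of the 33 held the doubled GAAA on either strand. That is 51.5%, against 3.99% of 27025 genes in the promoter table. In the core, 5 of 8 promoters held the doubled GAAA, and on the gamma side 6 of 13. The median log2 ratio was 0.11 over 15 genes with the element and 0.23 over 13 genes without it, and Psmb9, Psmb10, Oasl2 and Irf7 were among those without a match in these windows. In the core the median was 0.28 over 3 genes with the element and -0.01 over 3 without it. On the gamma side it was 0.14 over 6 genes with the element and 0.22 over 6 without it. A second string, TTC, 3 bases of any kind and GAA, was also searched. It stood in 10 of the 33 promoters, or 30.3%, against 9.55% of genes in the promoter table. Of these, 2 of 8 were in the core and 3 of 13 on the gamma side. The median log2 ratio was 0.09 over 10 genes with this string and 0.26 over 18 without it. A match is a run of letters and not a measured binding site.

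Other interferon-induced genes outside the 40 were also counted. Of 46 that were analysed, 24 were higher, 11 lower and 11 below the floor in both samples. At least 1.5-fold higher were 4, against 3.6% of measured genes, and at least 1.5-fold lower were 2, against 3.39%. Isg20, an RNA exonuclease gene, read 369.7 in the Cbs null sample and 189.9 in the control sample, a log2 ratio of 0.96. Rtp4, a chaperone of receptor transport, stood at 0.72, the inflammatory caspase gene Casp4 at 0.70 and the phospholipid scramblase gene Plscr1 at 0.65. Slfn2, a growth regulator of immune cells, read 102.7 in the Cbs null sample and 185.8 in the control sample, a log2 ratio of -0.86. Ifi202b, a DNA-binding family member, stood at -0.68. Cxcl9 and Cxcl11, chemokines that interferon-gamma induces strongly, were below the floor in both samples, and Cxcl10 read 44.8 in the Cbs null sample and 47.9 in the control sample.

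Inhibitors of the pathway were mixed. Socs3, a feedback inhibitor of cytokine receptors, stood at 0.42 and was higher in all 3 of its probe sets, while Socs1 was below the floor in both samples. Ptpn6, the phosphatase SHP-1 of blood cells, stood at 0.90 in its brighter probe set and at -0.02 in the other. Samhd1, a nucleotide hydrolase, stood at -0.32, and of its other 3 probe sets 2 were lower and 1 was higher. Of 11 such genes, 7 were higher, 3 lower and 1 below the floor in both samples. Of all genes above the floor in both samples, 53.6% were higher. At least 1.5-fold higher was 1 of the 11, against 3.6% of measured genes.

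Markers of several cell types also differed between the samples. For comparison, of 7941 genes above the floor in both samples, 4257 were higher and 3670 lower. At least 1.5-fold higher were 3.6% of measured genes. Of 23 macrophage and dendritic markers, 19 were higher, 1 lower and 3 below the floor in both samples, namely Itgam, Fcgr1 and Cd163. Their summed signal was 8540 in the Cbs null sample and 5857 in the control sample, with a median log2 ratio of 0.46. MHC class II genes were higher in 6 of 8 and below the floor in the other 2, H2-DMb2 and Ciita, with sums of 5704 and 3990 in the same order. At least 1.5-fold higher were H2-Eb1 and H2-Oa, and H2-Oa read 76.7 in the Cbs null sample and 25.6, under the floor, in the control sample. Uterine epithelium markers were higher in 13 of 13, with sums of 7252 in the Cbs null sample and 4476 in the control sample. Smooth muscle markers were lower in 9 of 10, with sums of 32887 and 40931. The part of these markers in the ratios of the interferon and class I genes was not tested.

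Lymphocyte and natural killer markers were mixed. Of 13 lymphocyte markers, 10 were below the floor in both samples, including Cd3d, Cd3e, Cd3g, Cd4, Cd8a, Cd79a and Ms4a1, and the list summed to 2230 in the Cbs null sample and 2811 in the control sample. Most of that sum was Jchain, the joining chain of secreted antibodies, at 1260.8 in the Cbs null sample and 1996.3 in the control sample. Without it the list summed to 969.2 in the Cbs null sample and 814.5 in the control sample, and Cd52, a leukocyte surface antigen gene, read 462.4 and 320.6 in the same order. Of 10 natural killer markers, 5 were higher, 2 lower and 3 below the floor, namely Ncr1, Tbx21 and Il2rb, with sums of 675.3 and 586.2. Of 5 plasmacytoid dendritic markers, which include Bst2, 4 were higher, 2 of them above the floor only in the Cbs null sample, and Ccr9 was below the floor. Their sums were 3021 in the Cbs null sample and 2867 in the control sample. No listed marker had a deposited signal of exactly 0 in either sample. Over the 35 interferon and class I genes the median log2 ratio was 0.20. Higher medians were those of the macrophage list, 0.46, the MHC class II list, 0.47, and the uterine epithelium list, 0.63. Lower medians were those of the lymphocyte list, 0.00, the natural killer list, 0.00, the plasmacytoid dendritic list, 0.07, and the smooth muscle list, -0.41.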

How the data were processed

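Total RNA was labelled as biotinylated cRNA from 2 microg, per the labels' protocols, and the submitters' processing notes name GCOS 1.4. The deposited table holds linear intensity values, 1 for each probe set on each array. How they were summarised and background-corrected, and any detection call, is not given in the sources used here. Deposited signal had a median of 75.6 in the Cbs null sample and 74.55 in the control sample, so values were used as deposited, and a ratio compares a gene with the other genes on its array.

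Of 22690 probe sets, 20380 carried 1 gene symbol in the platform annotation and 20351 of these matched RefSeq identifiers, with 0 symbols changed. A gene was represented by its probe set of highest mean log2 signal, after raising signals to the floor of 43.2, and was measured when above it on at least 1 array (8410 genes, 7941 on both). Technical SD was that of the difference in log2 ratio between the 2 brightest probe sets of a gene, divided by the square root of 2. Genes were counted by fixed sizes of 2-fold and 1.5-fold. No test was possible with 1 array per group, and the number of arrays limits the precision. Calls at 2-fold were tested on simulated data, with larger changes planted in bright genes and technical noise alone. That simulation does not cover changes in dim genes, calls at 1.5-fold or variation between mice.

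The members and lists were chosen with earlier results of these data known. All members are named, and from the other pathway lists the genes at least 1.5-fold apart, or else the 2 brightest. Some receptors, heavy chains, inhibitors and catalytic subunits are named besides. Chromosomal neighbours of members are also named. Marker lists are given by counts and sums. Tlr3, Mavs, Irf5, Zbp1, Cxcl9, Cxcl10, Cxcl11, Jchain, Cd52 and the markers under the floor were named after their values were seen. Alternatives were centring, quantile normalization, a floor at the 20th or at the 60th percentile, a pseudocount of 16 in its place, averaging probe sets and leaving out _s_at and _x_at probe sets. Python 3.11.15, numpy 2.4.6 and pandas 2.3.3 were used.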

Additional observations from a re-analysis of the deposited data

Results flagged for a closer look

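A probe set shared by Trim30a and Trim30d, interferon-induced ubiquitin ligase genes, lay outside the comparison by gene because it carries more than 1 symbol. It read 120.2 in the Cbs null sample and 71.4 in the control sample, 1.68-fold higher. The probe sets of Trim30a alone stood at log2 ratios of 0.39 and 0.44.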

How the results depend on the processing

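The median log2 ratio over all members stayed between 0.18 and 0.22 and that of the gamma, immunoproteasome and loading side between 0.17 and 0.19 under every alternative run. The type I core median of 0.11 was 0.28 when the floor was the 20th percentile and 0.26 with a pseudocount in place of the floor. It was 0.23 when the other effectors were added to the core and 0.35 over members above the floor in both samples, and these last 2 alternatives were chosen after seeing the data. Psmb9 was no longer 2-fold higher, leaving 0 such members, when the floor was the 60th percentile (120.34 units), where its log2 ratio of 0.33 is a bound because the control signal lies under that floor, and with the pseudocount, at 0.90. That lowest floor left 1 member at least 1.5-fold lower, Oasl1 at -0.74. Between 4 and 5 members were at least 1.5-fold higher, and 0 were 2-fold lower, in each of 8 alternatives. Of the members, 3 changed sign in at least 1 of these 8, namely Irf1, Mx1 and Mx2. No paired analysis was possible because each group has 1 array. Leaving out an array was likewise not possible. Signals under the floor limit what can be said of the interferon genes, Mx1, Mx2 and Oasl1.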
